A study of Sus scrofa with 8 samples.

Results

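The neutrophil antimicrobial peptides and calgranulins described here are 5 genes, NPG4, PR39, S100A8, S100A9 and S100A12, measured in pig liver by every probe set whose only annotated symbol is one of them. They hold 11 probe sets, 6 for NPG4, 2 for PR39 and 1 for each S100 gene, among 6765 genes and 23935 probe sets (controls left out). Liver RNA of 8 pigs was hybridized to the Affymetrix porcine array, 1 array per animal, from 4 Korean native pigs (KNP) aged 7 months and 4 Yorkshire pigs (YS) aged 6 months. All animals were kept under the same conditions and the tip of the largest liver lobe was sampled in each. Age followed breed, so breed and age cannot be told apart in any comparison. The 5 genes were picked with results of this same comparison known. Their differences between the breeds are therefore given as a description, with no p-value.

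Neutrophils kill microbes partly with peptides and proteins that they store in granules. NPG4 encodes protegrin 4 and PR39 a proline-rich peptide, and both belong to the cathelicidins, which are made as precursors with a conserved cathelin domain and cut to the active peptide by elastase in the case of the protegrins. Cathelicidin messages are made mainly in maturing myeloid cells of the bone marrow. S100A8, S100A9 and S100A12 are the calgranulins, small calcium-binding proteins that are abundant in the cytosol of neutrophils and monocytes; S100A8 and S100A9 pair to form calprotectin, which withholds zinc and manganese from microbes, and released calgranulins act on the receptors TLR4 and AGER. In the RefSeq gene table for the Sscrofa11.1 assembly, NPG4 and PR39 are direct neighbours, and S100A8, S100A12 and S100A9 follow one another directly on another chromosome. That table lists PMAP37 as a synonym of NPG4. It places the cathelicidins PMAP-23, NPG1 and PMAP-36 shortly after NPG4 and PR39 in the same order of genes. None of these is the single symbol of a probe set here. Since protegrin genes are nearly identical in sequence, the probe sets annotated to NPG4 may read several of them.

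The values are the authors' intensities on a linear scale, scaled per array, and the number of arrays limits their precision. Array medians spanned 153 to 170 in KNP and 154 to 180 in YS. Some array-wide measures separated the breeds without overlap. The brightest probe set of an array reached 50730 to 60066 in KNP and 83646 to 95919 in YS, and the spiked controls averaged (geometric mean) 2747 to 4230 in KNP and 5167 to 7651 in YS. Actin control probe sets at the 3' end were 2.68 to 6.45 times as bright as those at the 5' end in KNP and 8.39 to 11.8 times in YS, a ratio that is larger in more degraded RNA. The same ratio of the GAPDH controls overlapped, at 2.30 to 3.77 in KNP and 3.07 to 4.05 in YS. The part of these measures in the differences below was not tested. Differences are KNP minus YS on the scale log2(intensity + 16), with the standard error (SE) of the limma fit over all probe sets. The added 16 understates changes of dim probe sets.

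NPG4 had a higher mean in the KNP livers by 5 of its 6 probe sets, with differences of 0.97 to 2.12 in the 4 that passed the filter on low values and 0.45 in a dim one. The filter used the mean over all 8 arrays, so high KNP values could carry a probe set past it. Ssc.420.1.S1_x_at and Ssc.420.4.S1_a_at lay below the array median on all 4 YS arrays. The brightest NPG4 probe set, Ssc.420.1.S1_a_at, had intensities of 271.4, 738, 654 and 1964 in KNP replicates 1 to 4, against 270.6, 162, 234 and 123 in YS replicates 1 to 4. All 4 KNP values lay above all YS values, but KNP replicate 1 only just, level with YS replicate 1, and KNP replicate 4 stood highest. The means were 907 ± 733 in KNP and 197 ± 66.7 in YS (SD, n = 4 each), a difference of 1.83 (SE 0.47), or 3.57-fold. In a bulk sample, fewer cells of a type and less RNA per cell cannot be told apart. Ssc.420.2.S1_x_at repeated the order within KNP, with 191, 569, 379 and 752 in KNP against 107, 164, 135 and 157 in YS. Its breeds did not overlap, and the difference was 1.5 (SE 0.36).

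Ssc.420.1.S1_x_at gave 84.5, 498, 269 and 529 in KNP against 24.0, 49.8, 138 and 38.8 in YS, the largest difference of the 11 probe sets at 2.12 (SE 0.56). Here KNP replicate 1 lay below YS replicate 3, and the other 3 KNP animals lay above every YS animal. Ssc.420.4.S1_a_at gave 25.8, 456, 186 and 410 in KNP against 59.3, 51.1, 121 and 152 in YS. KNP replicate 1 was the lowest of all 8 arrays in it and the other 3 KNP animals were the highest, so its difference of 0.97 (SE 0.67) became 1.73 without KNP replicate 1. The suffix _x_at marks, in Affymetrix naming, probes that can bind other transcripts too, and _a_at probes shared by transcripts of one gene.

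The remaining NPG4 probe sets were dim, below the array median on all 8 arrays, and were left out of the test by the filter on low values. Ssc.420.3.S1_at ranged from 21.3 to 143 in KNP and from 16.4 to 57.3 in YS, with KNP replicate 4 again the highest array. Its difference of 0.45 (SE 0.47) became 0.013 without KNP replicate 4. Ssc.420.4.S1_at ranged from 34.8 to 65.8 in KNP and from 27.3 to 137 in YS, with a difference of −0.26 (SE 0.42), which turned to 0.10 without YS replicate 3.

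**Figure D1:**
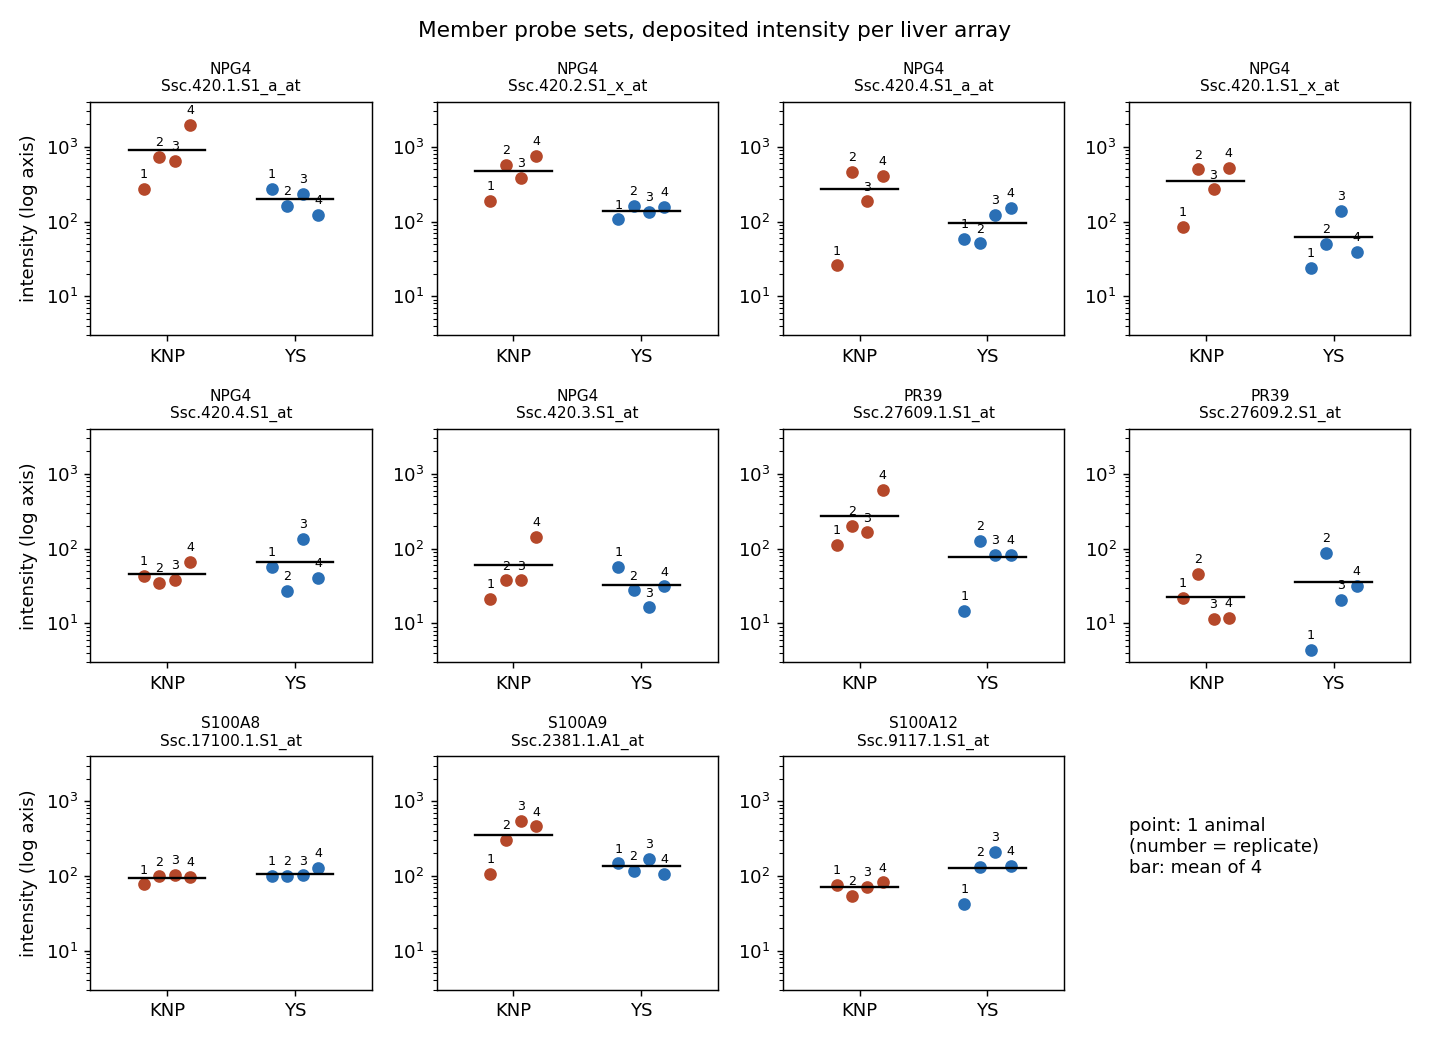
Deposited intensity (log axis) of the 11 member probe sets, 1 point per liver array labelled with its replicate number, KNP left and YS right, with a bar at the mean of 4. KNP replicates 2 to 4 stand above all YS points in 4 NPG4 probe sets, the brighter PR39 probe set and S100A9, whereas S100A8 lies between 76.8 and 129 on all 8 arrays.

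PR39, the other cathelicidin, was also higher in KNP by its brighter probe set. Ssc.27609.1.S1_at had 113, 203, 166 and 616 in KNP against 14.6, 128, 83.1 and 83.3 in YS. KNP replicate 4 was the highest array by a wide margin and YS replicate 1 the lowest, and the breeds overlapped only through KNP replicate 1, which lay below YS replicate 2. The means were 275 ± 231 in KNP and 77.2 ± 46.7 in YS (SD, n = 4 each), with a difference of 1.56 (SE 0.55) that became 1.09 without KNP replicate 4 and 1.09 without YS replicate 1. The second probe set, Ssc.27609.2.S1_at, did not share this pattern: it was dim on every array, at 11.6 to 46.2 in KNP and 4.41 to 87.6 in YS, and its difference was −0.26 (SE 0.49), turning to 0.16 without YS replicate 2.

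Among the calgranulins, S100A9 was higher in 3 of the 4 KNP livers. Its intensities were 107, 302, 547 and 460 in KNP against 147, 115, 167 and 106 in YS. KNP replicates 2, 3 and 4 lay above every YS animal and KNP replicate 1 lay among them. The means were 354 ± 193 in KNP and 134 ± 28.2 in YS (SD, n = 4 each), a difference of 1.12 (SE 0.42), or 2.17-fold, which became 1.58 without KNP replicate 1.

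S100A8, the partner of S100A9 in calprotectin, showed no such difference on this array. It had 76.8, 98.6, 102 and 96.6 in KNP against 99.3, 98.7, 101 and 129 in YS, below the array median on all 8 arrays. The means were 93.5 ± 11.4 in KNP and 107 ± 14.6 in YS (SD, n = 4 each), with a difference of −0.17 (SE 0.27). S100A12 ran the other way, with 74.9, 54.0, 71.5 and 81.8 in KNP against 42.4, 130, 209 and 135 in YS. YS replicates 2, 3 and 4 lay above every KNP animal and YS replicate 1 below every one, and the difference was −0.60 (SE 0.40). S100A12 was above the array median on 1 of 8 arrays.

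**Figure D2:**
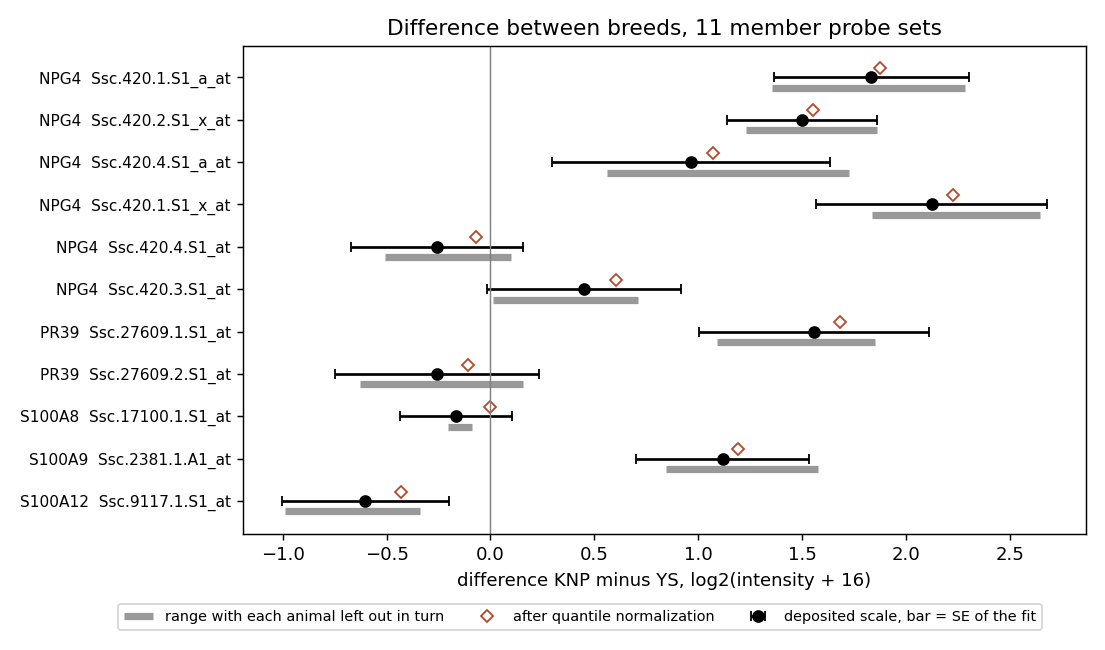
Difference KNP minus YS on the scale log2(intensity + 16) for each member probe set, with the SE of the fit (black), the range with each animal left out in turn (grey bar) and the value after quantile normalization (open diamond). NPG4 by 4 probe sets, PR39 by its brighter one and S100A9 lie at 0.97 or above, and S100A12 lies at −0.60.

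Over the 11 probe sets, 7 had a higher mean in KNP and 4 a lower one, with a median difference of 0.97. Over all 23935 probe sets the median was −0.07, and 43.3% had a higher mean in KNP. NPG4 alone gave 6 of the 11 probe sets and 5 of the 7 higher ones. By the brightest probe set of each gene, 3 genes had a higher mean in KNP and 2 a lower one. All KNP values lay above all YS values in 2 of the 11 (both NPG4), and in 2.89% of the 23935; all KNP values lay below in 0 of the 11, and in 5.41% of the 23935. These shares stand here as a description, since the genes were chosen on this comparison. Of the 11 probe sets, 7 passed the filter on low values, which keeps the brighter 60% by mean over the 8 arrays. KNP replicate 1 was the lowest KNP array in 8 of the 11, and KNP replicate 4 the highest KNP array in 7.

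**Figure D3:**
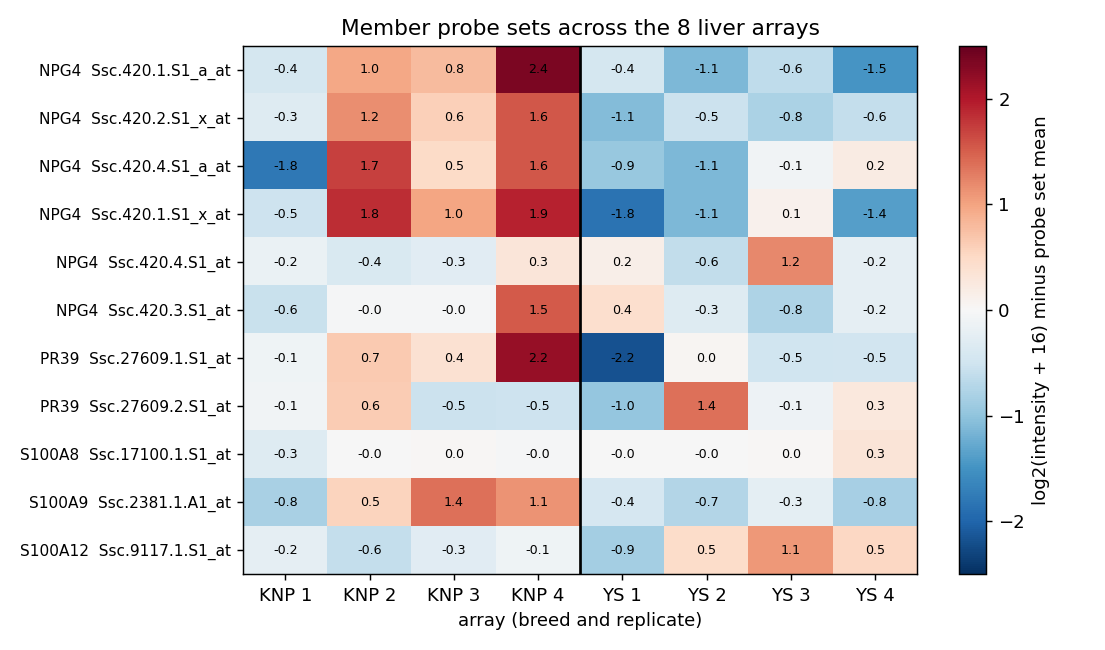
Each cell gives log2(intensity + 16) on 1 array minus the mean of its probe set over the 8 arrays, for the 11 member probe sets, with KNP arrays left of the line and YS arrays right of it. KNP replicate 4 is the highest KNP array in 7 rows, and KNP replicate 1 the lowest KNP array in 8.

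Over the 8 arrays, the brightest NPG4 probe set, the brighter PR39 probe set and S100A9 were positively correlated. These correlations include the difference between breeds on which the genes were chosen. The 3 did not run together on every array: YS replicate 1 was the highest YS array for NPG4 (270.6) and the lowest of all 8 for PR39 (14.6). With each breed's mean subtracted, the 5 genes were less clearly divided. The correlations are descriptions over 8 animals that share an array type and, within a breed, whatever was common to that breed. The brightest NPG4 probe set had a Pearson r of 0.88 with S100A9 (Spearman 0.76), and of 0.78 after each breed's mean was subtracted. With the brighter PR39 probe set r was 0.74 (Spearman 0.71), and 0.45 with breed means subtracted. With S100A8 it was −0.27, and 0.23 with breed means subtracted, and with S100A12 it was −0.45, and −0.11 with breed means subtracted. The brighter PR39 probe set had an r of 0.63 with S100A9 and 0.07 with S100A12, which became 0.32 and 0.64 with breed means subtracted. Among the NPG4 probe sets 13 of 15 pairs had a positive r, the highest being 0.93 between Ssc.420.2.S1_x_at and Ssc.420.1.S1_x_at. S100A8 and S100A9, neighbours in the genome and partners as proteins, had an r of −0.01 over the 8 arrays and 0.52 with breed means subtracted. Over the 10 pairs of the brightest probe set of each gene, 5 were positive and the median r was 0.03, or 0.33 with breed means subtracted.

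**Figure D4:**
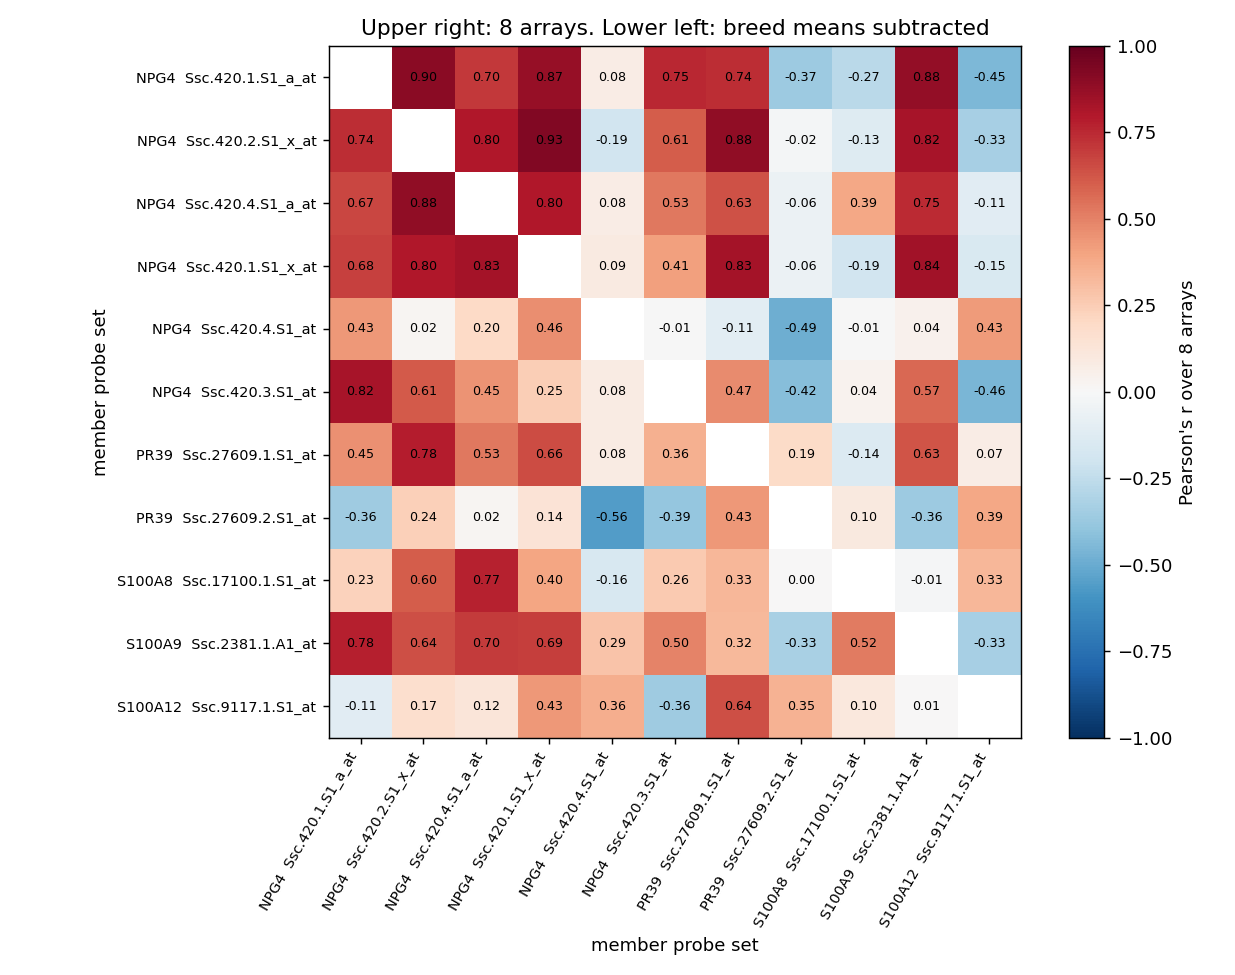
Pearson's r between the log2 values of each pair of member probe sets over the 8 arrays (upper right) and after subtracting each breed's mean (lower left). The brightest NPG4 probe set and S100A9 reach 0.88 and 0.78, and S100A8 with S100A9 gives −0.01 and 0.52.

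Likeness was also measured against the mean of the 5 genes (brightest probe sets, standardized) for 5409 other genes. The highest r belonged to RPRD1A (0.97), KCNE3 (0.95), FAM50A (0.95), NGDN (0.94), GPANK1 (0.93) and YY1 (0.92). With breed means subtracted RPRD1A (0.97), DHX30 (0.94), MAZ (0.94), UBA2 (0.93), NGDN (0.93) and FAM50A (0.93) led. Without the 2 arrays farthest from the median, KNP replicate 4 and YS replicate 1, YY1 had an r of 0.76 and RPRD1A of 0.92. Against the brightest NPG4 probe set alone, a measure chosen after the values were seen, the highest were UIMC1 (0.96), SNX14 (0.95), ADGRE5 (0.94), MYO6 (0.93), INTS6L (0.92) and CYTH2 (0.92). Those r values include the difference between breeds on which NPG4 was chosen. With breed means subtracted, other genes led: TSR3 (0.98), PIGM (0.98), CIR1 (0.94), PUS1 (0.94), RPS13 (0.94) and TAPT1 (0.94). All of these are the extremes of 5409 correlations over 8 animals.

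Related genes were taken from 8 lists and tested in the fit over 14361 probe sets, of which 1.02% had an adjusted p under 0.05 (0.425% higher and 0.592% lower in KNP). Each gene is represented by its brightest probe set. Of 62 genes with a probe set, 44 were tested. Of these, 1 rose, 1 fell and 42 did not pass. An unadjusted limma p under 0.05 was found for 15 of the 44. That is a larger share than the 15.1% (2172 of 14361) over all probe sets tested. The lists were chosen with earlier results of these data known. The median difference of the 44 was 0.31, beside −0.01 over all probe sets tested.

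Of the other granule and oxidase proteins of neutrophils, 14 of 24 had a probe set and 9 were tested, of which limma called 0 (3 at an unadjusted p under 0.05), with a median of 0.47. LTF, lactoferrin, the iron-binding protein of the secondary granules, had 101, 153, 185 and 357 in KNP against 73.7, 136, 104 and 63.5 in YS, a difference of 0.88 (SE 0.37, adjusted p = 0.290). KNP replicate 4 was its highest array, as for NPG4, with which it had an r of 0.89. Over the 8 arrays some of the list ran differently. BPI, which binds bacterial endotoxin, had a difference of −0.31 and an r of −0.54 with NPG4. MMP9, the gelatinase of the tertiary granules, had −0.54 and an r of −0.31, and ELANE, neutrophil elastase, an r of 0.11. These r values include the difference between breeds on which NPG4 was chosen. With breed means subtracted, r was 0.79 for LTF, 0.40 for NCF1, −0.27 for BPI, 0.32 for MMP9 and 0.38 for ELANE. The brightest of the list were SRGN, the proteoglycan serglycin of granules in many blood cells (0.59, adjusted p = 0.266), DEFB1, an epithelial beta-defensin (1.01, adjusted p = 0.310), and SERPINB1, an inhibitor of neutrophil elastase (−0.08, adjusted p = 0.83). The other probe set of DEFB1 showed −0.64. The primary granule proteases were dim: ELANE averaged 107 ± 43.6 in KNP and 116 ± 32.5 in YS, and PRTN3, proteinase 3, averaged 26.0 ± 30.3 in KNP and 27.8 ± 18.3 in YS (SD, n = 4 each). LTF and PRTN3 are named beyond the naming rule, after their values were seen, and so are NCF1, BPI, MMP9, ELANE, ITGB2, ITGAM and TREM1.

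Among neutrophil receptors and adhesion molecules, 6 of 17 had a probe set and 4 were tested, of which limma called 0 (2 at an unadjusted p under 0.05), with a median of 0.36. FCGR3A, an IgG receptor shared with NK cells and macrophages, averaged 1509 ± 226 in KNP and 947 ± 280 in YS (0.70, SE 0.22, adjusted p = 0.159). ITGB2, the beta chain of the leukocyte integrins, averaged 608 ± 150 in KNP and 329 ± 79.2 in YS (0.85, SE 0.225, adjusted p = 0.108). FCGR2B, an inhibitory IgG receptor, and TNFRSF1B, a TNF receptor, showed −0.06 and 0.02 with adjusted p of 0.949 and 0.979, and the sign turned for FCGR2B after median centring and for TNFRSF1B after quantile normalization. ITGAM, the alpha chain that pairs with ITGB2 on myeloid cells, was below the filter, at 37.0 ± 10.1 in KNP and 77.8 ± 28.7 in YS, and so was TREM1, a receptor of neutrophils and monocytes, at 11.4 ± 0.91 in KNP and 34.8 ± 26.2 in YS (SD, n = 4 each).

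The calgranulin receptors and their signalling chain had 10 of 13 genes with a probe set and 7 tested, of which limma called 0 (1 at an unadjusted p under 0.05), with a median of 0.08. CD14, the co-receptor of TLR4, showed 0.08 (adjusted p = 0.886, and −0.28 by its other probe set), NFKBIA, the NF-kappaB inhibitor, 0.29 (adjusted p = 0.483), and IRAK1, a kinase of the chain, −0.41 (adjusted p = 0.310). All KNP values of IRAK1 lay below all YS values, as in 5.65% of the probe sets tested. TLR4 itself, like AGER named after its values were seen, showed 0.37 with its brightest probe set (adjusted p = 0.571), and AGER was below the filter.

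Of 16 other S100 genes, 7 had a probe set and all 7 were tested, of which limma called 0 (4 at an unadjusted p under 0.05), with a median of 0.38. Their breeds did not overlap in 4 of the 7, all higher in KNP, beside 4.02% of the probe sets tested. S100A1, a calcium sensor of muscle and other tissues, averaged 2181 ± 452 in KNP and 1075 ± 328 in YS (1.04, SE 0.24, adjusted p = 0.0740). S100A10, the annexin A2 partner, averaged 5963 ± 1223 in KNP and 4507 ± 311 in YS (0.38, SE 0.16, adjusted p = 0.281). S100A11 averaged 953 ± 117 in KNP and 584 ± 143 in YS (0.72, SE 0.19, adjusted p = 0.118). S100A4, a motility protein of leukocytes and fibroblasts that is named after its values were seen, had 145, 225, 198 and 330 in KNP against 26.3, 79.9, 103 and 56.5 in YS (1.59, SE 0.36, adjusted p = 0.0747).

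Chemoattractants and growth factors of neutrophils were dim. Of 14 genes, 9 had a probe set and 2 were tested, of which limma called 0 (1 at an unadjusted p under 0.05): IL1B, which draws neutrophils into tissue, showed −0.85 (adjusted p = 0.173) and TNF 0.39 (adjusted p = 0.641). The brightest of those below the filter, CXCL2, a ligand of the neutrophil receptor CXCR2, averaged 108 ± 39.9 in KNP and 55.1 ± 12.3 in YS (SD, n = 4 each). All 6 of 10 transcription factors that had a probe set were tested. All 6 had a higher mean in KNP, beside 43.3% of all 23935 probe sets without the filter. Of the 6, limma called 0 (0 at an unadjusted p under 0.05). Their median was 0.31, beside −0.01 over all probe sets tested. CEBPD, CEBPB and STAT3, factors of the acute phase response, showed 0.29, 0.34 and 0.34, with adjusted p of 0.533, 0.372 and 0.664. The r with the brightest NPG4 probe set, a measure chosen after the values were seen, differed within the list. It was 0.91 for CEBPB, 0.78 for CEBPD, 0.50 for SPI1, 0.35 for STAT3, 0.05 for CEBPG and −0.26 for CEBPA. With breed means subtracted it was 0.86, 0.75, 0.16, 0.18, −0.38 and −0.58 in the same order. SPI1, CEBPG and CEBPA are named beyond the naming rule.

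Of 14 antimicrobial and acute phase genes of the liver, 10 had a probe set and 9 were tested; 1 rose, 1 fell and 7 did not pass, with a median of 0.10. LRG1, a secreted glycoprotein of hepatocytes and neutrophil granules, rose by 1.19 (SE 0.23, adjusted p = 0.0407), at 5231 ± 718 in KNP and 2370 ± 753 in YS (SD, n = 4 each). HP, haptoglobin, which binds free haemoglobin, fell by 0.66 (SE 0.12, adjusted p = 0.0353), at 48897 ± 6276 in KNP and 76797 ± 3762 in YS, and its difference was −0.06 after quantile normalization. The call of LRG1 was lost with each animal left out in turn, and that of HP without KNP replicate 1 or any YS animal. ORM1, the plasma glycoprotein orosomucoid, showed −1.06 (adjusted p = 0.072) and ITIH4 0.49 (adjusted p = 0.388). After quantile normalization ORM1 showed −0.58 (limma adjusted p = 0.328) and ITIH4 0.92 (limma adjusted p = 0.139).

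**Figure D5:**
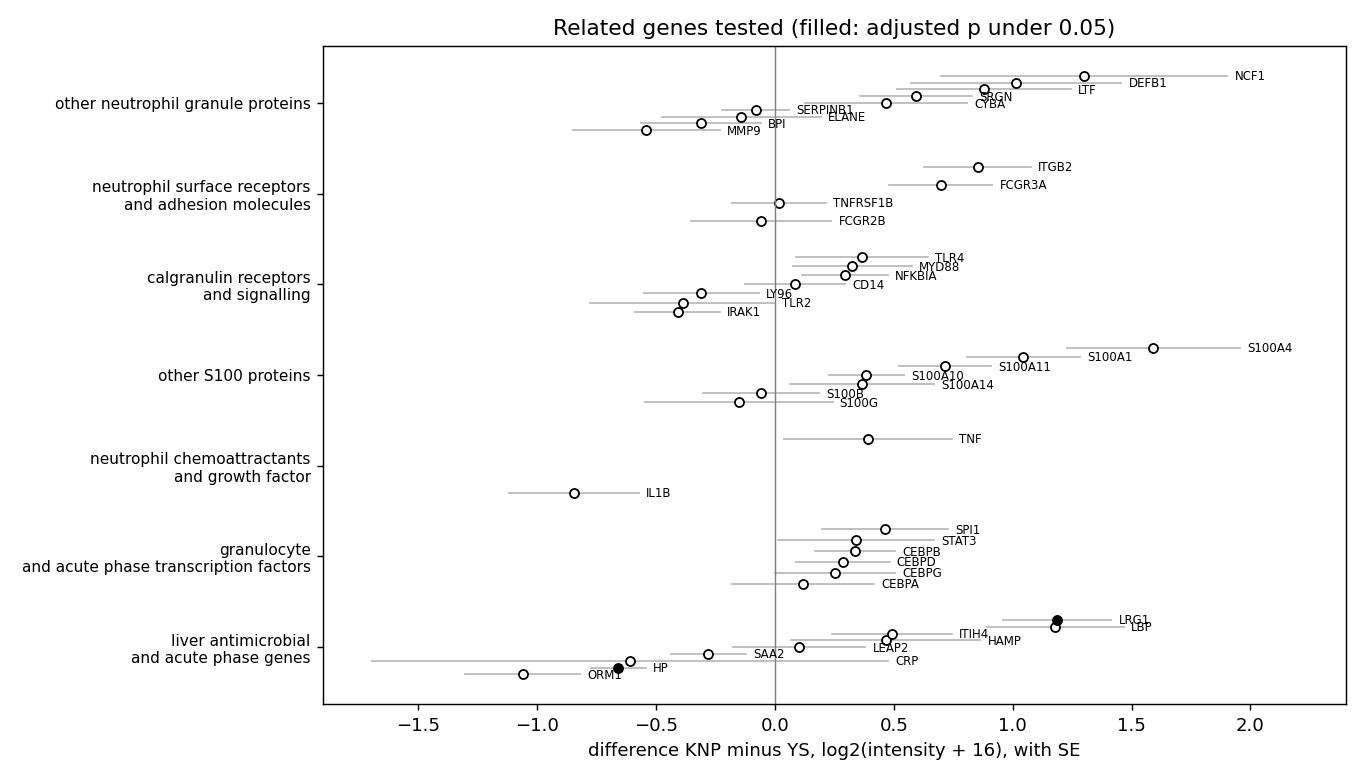
Difference KNP minus YS on the scale log2(intensity + 16), with its SE, for each related gene tested, grouped by list; filled points passed an adjusted p of 0.05 and open points did not. LRG1 (1.19) and HP (−0.66) are the filled points.

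Levels of other cell types were read from 10 marker lists, as the summed intensity of each list. Hepatocyte markers were bright on all arrays, at 328335 to 403869 in KNP and 548756 to 593504 in YS, and 7 of 10 fell, beside 0.592% of all probe sets tested. These calls depended on the scaling: 4 of 10 were called lower after median centring and 0 after quantile normalization. Macrophage markers (8 of 14 with a probe set, 0 called) summed to 23421 to 28290 in KNP and 17312 to 24101 in YS, with CD5L, C1QC and CD163 the brightest. Monocyte markers (4 of 6) summed to 2550 to 3463 in KNP and 2148 to 3723 in YS, of which CD14, also made by other liver cells, gave 82.7% to 94.9%. Erythroid markers (4 of 8), which track blood in the tissue, summed to 1628 to 3688 in KNP and 2102 to 5572 in YS, and platelet markers (4 of 7) to 463 to 970 in KNP and 658 to 843 in YS. Both lists overlapped between the breeds. T and NK cell markers (12 of 17) summed to 1601 to 3103 in KNP and 1136 to 2283 in YS. Markers of B and plasma cells (3 of 10) summed to 7018 to 12050 in KNP and 6174 to 8244 in YS, of which XBP1, which hepatocytes express too, gave 66.4% to 87.1%. JCHAIN of the same list averaged 2818 ± 662 in KNP and 1634 ± 744 in YS (SD, n = 4 each), a difference of 0.85 (limma adjusted p = 0.214). The B cell receptor chain CD79B was at 2.56 to 76.9 in KNP and 3.12 to 66.1 in YS. The monocyte sum and the B and plasma cell sum thus each follow mainly 1 bright probe set. A single probe set also gave a large part of other sums. ALAS2 gave 50.3% to 70.3% of the erythroid sum and KRT10 67.0% to 87.5% of the squamous epithelium sum. MS4A2 gave 42.2% to 76.5% of the mast cell and eosinophil sum. Those of mast cells and eosinophils (2 of 7) summed to 275 to 304 in KNP and 237 to 341 in YS, and those of endothelium (6 of 8) to 3097 to 4330 in KNP and 2726 to 4289 in YS. Markers of squamous epithelium, which also makes calgranulins, summed to 503 to 677 in KNP and 453 to 638 in YS, and 3 of the 4 with a probe set were below the array median on every array. The part of these cell types in the differences of the cathelicidins and S100A9 was not tested.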

How the data were processed

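Liver RNA of 8 pigs was measured on 1 Affymetrix porcine array each. Per the labels, RNA was extracted with Trizol and labelled with biotin. The submitters' processing notes name GCOS 1.3. The authors deposited 1 linear intensity for each probe set. Its mean, trimmed at percentiles 2 and 98, was 499.8 on each array, so arrays had been scaled before deposit. Signal algorithm, background step and genome build: not given in the sources used here. Detection calls were not part of the table. Precision is set by how few arrays there are.

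Of 24123 probe sets, 188 controls were left out. Values were transformed as log2(intensity + 16). Array medians differed by 0.22, under the limit of 0.5, so they were not normalized further. A filter on the mean removed the dimmest 40%, leaving 14361 for the test. KNP and YS were compared with limma 3.58.1 in R 4.3.3 (lmFit, eBayes with an intensity trend, two-sided, breed as the only term) with Benjamini-Hochberg adjustment; the script was tested on simulated data. Member differences and their SE come from the same fit without the filter. Symbols come from the array annotation (10069 probe sets with 1 symbol, 198 with several, 13668 with none); all 5 member symbols were found in the RefSeq table. Named genes are all members, the genes called in each list, otherwise the 3 brightest, and the 6 genes most like the members; exceptions are stated. The members and lists were chosen with earlier results of these data known. Results were recomputed with 1 or 64 added before the log, after quantile normalization or median centring, without the filter or with one removing 60%, without the trend, with a replicate block, and with each animal left out.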

Additional observations from a re-analysis of the deposited data

Results flagged for a closer look

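A value in a breed was marked when its gap to the nearest of the other 3 animals as a share of the breed's range passed Dixon's 95% critical value. Of 66 groups of 4 examined, 3 were marked, about the 1 in 20 that chance gives. S100A8 in YS replicate 4 had an intensity of 129, against 98.7 to 101 in the other YS animals. In KNP replicate 2, S100A1 had 2855, with the remaining KNP animals at 1922 to 2019. S100A11 had 1128 there, with the remaining KNP animals at 877 to 909.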

How the results depend on the processing

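The 11 member probe sets gave 132 differences under the 12 alternatives that can move one, and 130 kept their sign; dropping the intensity trend or adding the replicate block leaves a difference as it is. The exceptions were both dim, NPG4 Ssc.420.4.S1_at without YS replicate 3 and PR39 Ssc.27609.2.S1_at without YS replicate 2. The number of member probe sets with a higher mean in KNP stayed at 7 or 8 with each animal left out. The brightest NPG4 probe set ran from 1.36 to 2.28, the brighter PR39 from 1.09 to 1.85 and S100A9 from 0.85 to 1.58, and after quantile normalization they showed 1.87, 1.68 and 1.19. S100A8 moved to −0.00089 there. The median r over the brightest probe sets lay between −0.11 and 0.15 with each animal left out. The total of 146 calls (61 higher, 85 lower) depended on the setting: 13 (9 higher, 4 lower) after quantile normalization, 93 (56 higher, 37 lower) after median centring, 35 with no filter, 13 with no intensity trend and 8 with the replicate block. It ran from 8 to 114 with 1 animal left out (49 without KNP replicate 1, 72 without KNP replicate 3, and 13, 24, 8 and 15 without YS replicates 1 to 4). The cause was not tested. In the list of liver antimicrobial and acute phase genes the 2 calls became 0 after quantile normalization, with no filter, with no intensity trend and with the replicate block, 1 after median centring, and 0 to 2 with 1 animal left out; the call of LRG1 was lost with each animal left out in turn (adjusted p from 0.0605 to 0.110). The 6 other lists that had tested genes kept 0 calls under every alternative run. Replicate numbers did not pair the animals: the deviations of same-numbered animals correlated at −0.020 to 0.053. Without detection calls, probe sets below the array median have no measured limit of detection.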
